A study of Mus musculus with 6 samples.

Results

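The clustered protocadherins are cell-surface adhesion proteins encoded on mouse chromosome 18 in the alpha, beta and gamma clusters. Members were taken as protein-coding gene models of GENCODE M21 whose symbols begin with Pcdha, Pcdhb or Pcdhg. This gave 14 alpha, 22 beta and 21 gamma members, 57 of the 55450 gene models counted. RNA came from adult cerebral cortex of mice, with 3 libraries labelled Setd5 heterozygous and 3 labelled wild type. The product of Setd5 is a chromatin protein with a SET domain. The labels do not describe the mutant allele, the strain, the sex or the exact age. Polyadenylated RNA was sequenced with a kit that does not record strand, and reads were counted per gene model by the authors. The labels do not state that libraries of a genotype came from separate animals, so the p-values speak of the variation among the libraries, some of which may be technical.

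In the alpha and gamma clusters each member has its own promoter and a large variable exon, which encodes the extracellular, transmembrane and proximal cytoplasmic parts of the protein. The variable exon is spliced to a small set of constant exons that all members of the cluster share. Beta members consist of a variable exon alone. Neurons express differing combinations of these genes, chosen by promoter through CTCF-bound and cohesin-dependent enhancer contacts, and matching between the combinations on touching membranes is known to serve self-recognition of neurites. The C-type members Pcdhac1, Pcdhac2, Pcdhgc3, Pcdhgc4 and Pcdhgc5 are regulated differently from the others and are used more uniformly between neurons.

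On GRCm38 all members lie on the plus strand of chromosome 18. Alpha members begin with Pcdha1 at 36930184 and share 3 constant exon blocks at 37156155 to 37156213, 37159265 to 37159353 and 37184946 to 37187657, which come to 2860 bases. Beta members run from Pcdhb1 at 37264938 to the end of Pcdhb22 at 37524479. Gamma members begin with Pcdhga1 at 37661793 and share blocks at 37825021 to 37825079, 37833265 to 37833353 and 37839903 to 37841870, 2116 bases in all. The annotation gives the symbol Pcdha11 to 2 models, ENSMUSG00000007440.10 starting at 37005203 and ENSMUSG00000102206.5 starting at 37010712. They are called the first and the second Pcdha11 model here.

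Library totals ran from 82850628 to 92860628 counts, and a count of 3, the limit that a count of 0 allows, corresponds to 0.0326 to 0.0364 CPM (counts scaled to a common library size). This limit covers counting error only. Setd5 itself had 69.5, 68.7 and 75.3 CPM in the heterozygous libraries, against 111.1, 97.0 and 107.5 CPM in the wild type libraries. Its groups did not overlap. The means were 71.2 ± 3.6 CPM for heterozygous and 105.2 ± 7.35 CPM for wild type cortex (SD, n = 3 per genotype), and the log2 difference was -0.56 (standard error, SE, 0.07). The Benjamini-Hochberg adjusted p of edgeR's quasi-likelihood test over 27939 genes was 0.258, above the threshold of 0.05. An exact two-sided permutation test gave p = 0.1, the smallest that 3 against 3 libraries can give. Heterozygous replicate 3 and wild type replicate 3 stood apart from the other 4 libraries with Xist, the RNA of the inactive X chromosome, at 865 and 784 CPM, against at most 0.876 CPM elsewhere. Wild type replicate 3 also had the highest summed level of 4 striatal genes (Drd1, Drd2, Adora2a and Rgs9). That sum was 19.9, 43.9 and 101.3 CPM in the heterozygous libraries and 16.7, 44.2 and 250.7 CPM in the wild type libraries.

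The deposited counts of alpha and gamma members were dominated by the shared constant exons, which were counted again for every model. In each of the 6 libraries the 14 alpha models had nearly equal counts. The lowest was Pcdha8 each time, and it reached 83.8% to 87.9% of the highest, Pcdhac2. Pcdha8 had 16625, 14007 and 16021 counts in the heterozygous libraries and 14291, 15338 and 12826 counts in the wild type libraries. Among gamma models the lowest was always Pcdhgb8, a model that the annotation does not class as protein-coding and that is no member by the rule. It had 20726, 18193 and 19434 counts in heterozygous libraries and 18846, 18616 and 22483 counts in wild type libraries, 83.8% to 86.8% of the highest gamma count.

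Because a read in a constant exon entered every model of its cluster, the lowest model's count is an upper limit on the shared reads. What a member had beyond it is a lower limit on the reads of that member's own exons. All members of a cluster fall short of their true value by the same unknown amount. Among the 12 alpha members that are not C-type, 11 exceeded the lowest model by mean counts of 111 to 389, or 0.743% to 2.55% of their deposited counts. For the 18 gamma members that are not C-type the excess was 60.5 to 680 counts, or 0.306% to 3.34%. The deposited alpha rows therefore repeat 1 measurement, and the gamma rows another. The beta rows share no constant exon. Exons of Pcdhb21 and Pcdhb22 overlap, with 4250 of 4705 and 6154 of 6609 exon bases free of other models, so these neighbours share some reads.

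The first gamma constant exon has 59 of the 2116 constant bases, and its reads were not counted by themselves. The models Gm37013 and Gm37388, which join an alpha variable exon to the beginning of the gamma constant exons, had 623 to 843 and 644 to 817 counts. These were at most 3.75% and 4% of the lowest gamma count. Both models end at 37833296, inside the second constant exon. Gm37013 also shares exon bases with the alpha member Pcdha6, and Gm37388 with Pcdha7. Their counts are therefore not of the first gamma constant exon alone, nor of gamma exons alone.

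**Figure D1:**
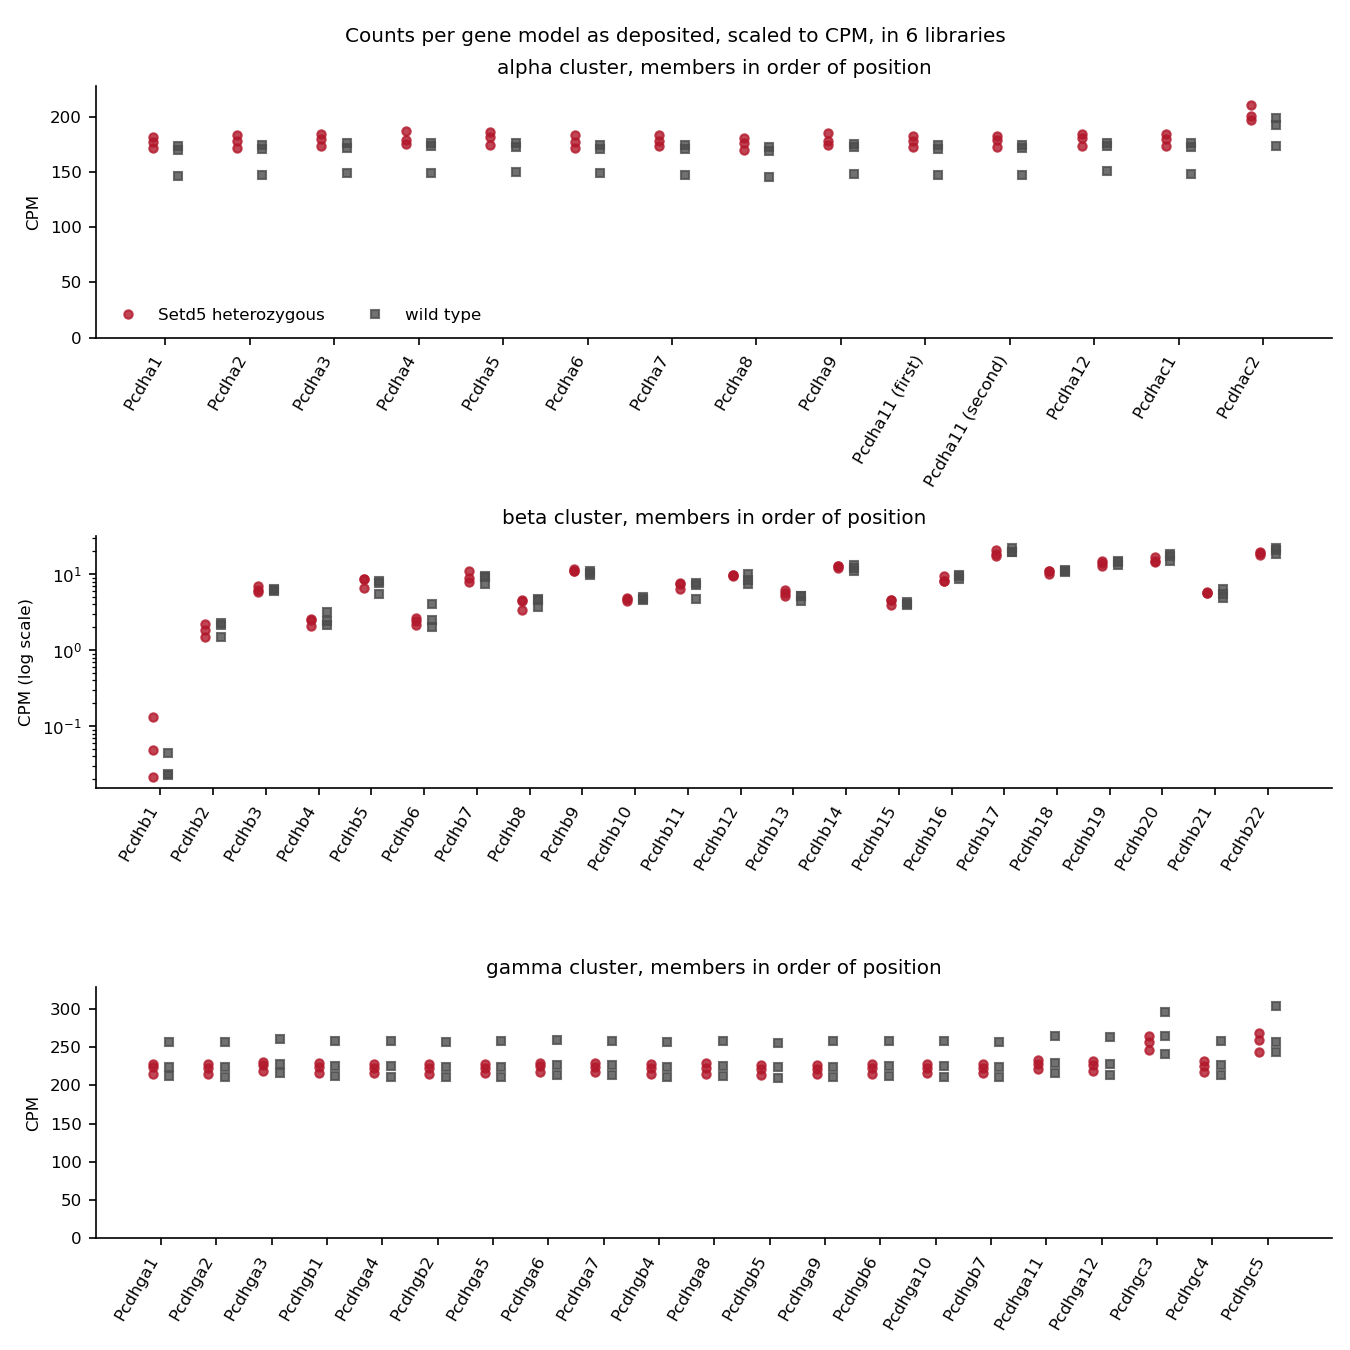
Deposited counts scaled to CPM for each member in order of position, with Setd5 heterozygous libraries as circles and wild type libraries as squares (n = 3 per genotype); the beta axis is logarithmic. Alpha rows are nearly level from member to member, as are gamma rows, apart from Pcdhac2, Pcdhgc3 and Pcdhgc5, while beta members range from Pcdhb1 near 0 to Pcdhb17 and Pcdhb22 near 20 CPM.

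No clustered protocadherin passed the test between genotypes. Of the 57 members 56 were tested, and Pcdhb1, the first beta gene, was left out by the filter on low counts. With edgeR's quasi-likelihood test 0 members were called, where 0 of 27939 genes tested (0%) were called. DESeq2 also called 0 members, against 63 of 22512 genes (0.28%). At an unadjusted p under 0.05 there were 0 members, where the share over all genes was 5.83%. The count over members is not a count of 56 independent genes, since the alpha and gamma rows share their reads.

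In the alpha cluster all 14 fitted log2 differences were above 0, between 0.10 and 0.12 with a median of 0.11. Over all genes 49.9% were above 0 and the median was -0.001, but the 14 rows hold 1 shared measurement. Adjusted p over the 14 rows ran from 0.873 to 0.878 in edgeR's quasi-likelihood test. The row closest to that shared measurement was Pcdha8, with 181, 170 and 176 CPM in heterozygous libraries and 169, 172 and 145 CPM in wild type libraries. Heterozygous replicate 2 lay below wild type replicate 2, so the groups overlapped, and wild type replicate 3 was the lowest library. Group means of the lowest alpha model were 176 ± 5.46 CPM for heterozygous and 162 ± 14.6 CPM for wild type cortex (SD, n = 3 per genotype). Its log2 difference was 0.11 (SE 0.08), with a 95% interval from -0.06 to 0.28. Without wild type replicate 3 the median alpha difference was 0.04.

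In the gamma cluster all 21 fitted differences were below 0, from -0.06 to -0.05, and again they repeat 1 measurement. Adjusted p ran from 0.925 to 0.942 in edgeR's quasi-likelihood test. Pcdhgb8, the lowest model, had 225, 221 and 214 CPM in heterozygous libraries, against 223, 209 and 255 CPM in wild type libraries. The heterozygous values lay within the wild type range, whose highest value was again replicate 3. Means of the lowest gamma model were 220 ± 6.04 CPM for heterozygous and 229 ± 23.6 CPM for wild type cortex (SD, n = 3 per genotype), a log2 difference of -0.06 (SE 0.08) with a 95% interval from -0.24 to 0.12. Without wild type replicate 3 the gamma median was 0.03, and without both libraries of high Xist it was 0.05, so its direction rested on that library.

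The beta members summed to 185, 179 and 182 CPM in heterozygous libraries and to 186, 176 and 186 CPM in wild type libraries. The sums were 182 ± 3.03 and 183 ± 5.78 CPM (SD, n = 3 per genotype), and the groups overlapped. The count of the lowest alpha model was set against that of the lowest gamma model of the same library, without scaling to exon length. It came to 80.2%, 76.99% and 82.4% in heterozygous cortex and to 75.8%, 82.4% and 57.0% in wild type cortex. Wild type replicate 3 was the library with a low alpha and a high gamma value, as well as the high striatal sum. Its part in these differences was measured only by leaving it out, and the part of striatal tissue was not tested. In bulk tissue fewer cells of a type and less RNA per cell cannot be told apart.

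**Figure D2:**
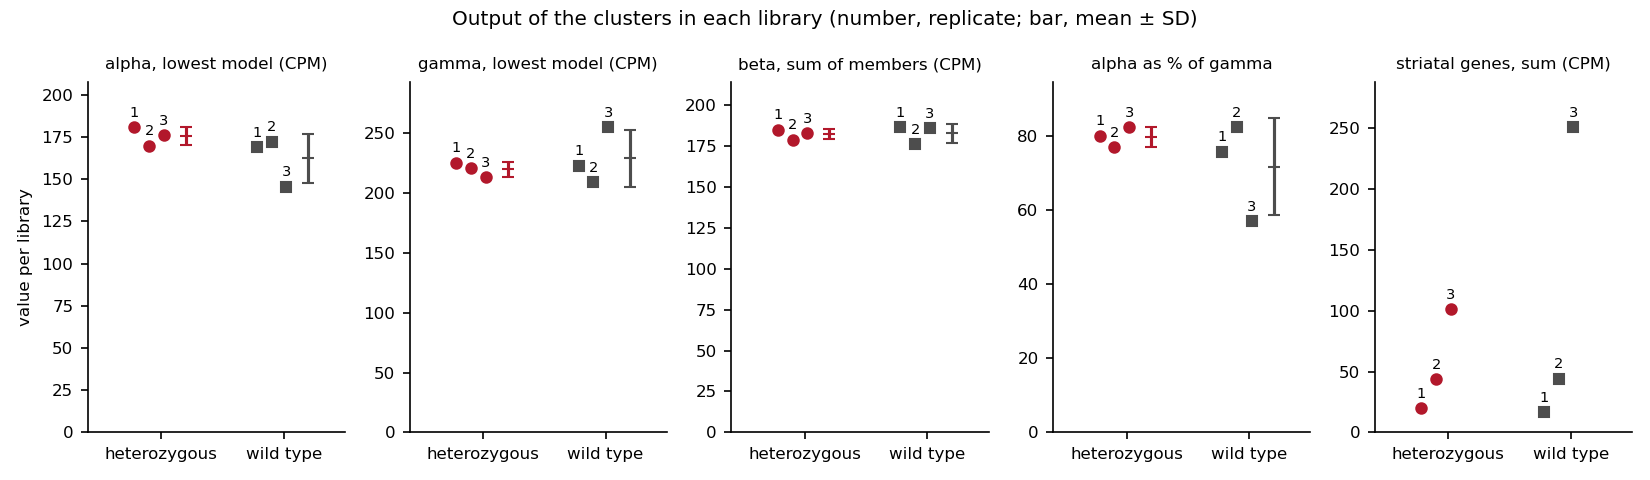
Output of each cluster by library, as the lowest alpha model, the lowest gamma model and the beta sum (CPM), with the alpha value as a percent of gamma and the summed striatal genes (CPM); points are libraries numbered by replicate, heterozygous left and wild type right, and bars are mean ± SD (n = 3; none is drawn for the striatal sum). Wild type replicate 3 is the lowest for alpha, at 145 CPM, and the highest for gamma, at 255 CPM, while the beta sums lie between 176 and 186 CPM.

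The C-type members held much of the alpha and gamma reads beyond the lowest model. Pcdhac2, which is needed for the tiling of serotonergic axons in mice, had 30.2, 27.0 and 24.3 CPM beyond Pcdha8 in heterozygous libraries, against 23.5, 26.9 and 28.2 CPM in wild type libraries. Its groups overlapped. It made up 42.1 ± 1.38% of the alpha reads beyond the lowest model in heterozygous and 42.7 ± 2.26% in wild type cortex (SD, n = 3 per genotype). The same unknown number of reads is missing from every member, and if it is above 0 the Pcdhac2 share is too high. In a fit of these reads over all genes the log2 difference was 0.05 (SE 0.10), with an adjusted p by edgeR of 0.96. Pcdhac1, the other alpha C-type member, had 3.80, 3.89 and 4.13 CPM in heterozygous libraries and 3.99, 4.45 and 2.77 CPM in wild type libraries. The range of wild type values enclosed the heterozygous ones, and the log2 difference was 0.08 (SE 0.17).

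Pcdhgc3, which promotes dendrite branching and whose cytoplasmic part binds Axin1, had 38.3, 35.6 and 32.6 CPM beyond the lowest gamma model in heterozygous libraries, against 41.3, 32.0 and 40.1 CPM in wild type libraries. Pcdhgc5, which binds a subunit of GABA-A receptors, had 42.4, 38.1 and 30.5 CPM in heterozygous and 34.0, 34.3 and 49.2 CPM in wild type libraries. Both overlapped between genotypes, with log2 differences of -0.09 (SE 0.10) and -0.08 (SE 0.16). Together they held 55.4 ± 0.542% of the gamma reads beyond the lowest model in heterozygous and 58.3 ± 4.96% in wild type cortex (SD, n = 3 per genotype). As for Pcdhac2, this share is too high if own reads are missing from every member.

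Pcdhgc4, the gamma member required for neuronal survival in mice, was the lowest of the gamma C-type members. It had 5.74, 4.78 and 3.44 CPM in heterozygous libraries and 3.61, 4.19 and 3.11 CPM in wild type libraries. Heterozygous replicate 3 lay within the wild type range. The log2 difference was 0.36 (SE 0.20), its 95% interval ran from -0.08 to 0.79 and the adjusted p by edgeR was 0.864.

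**Figure D3:**
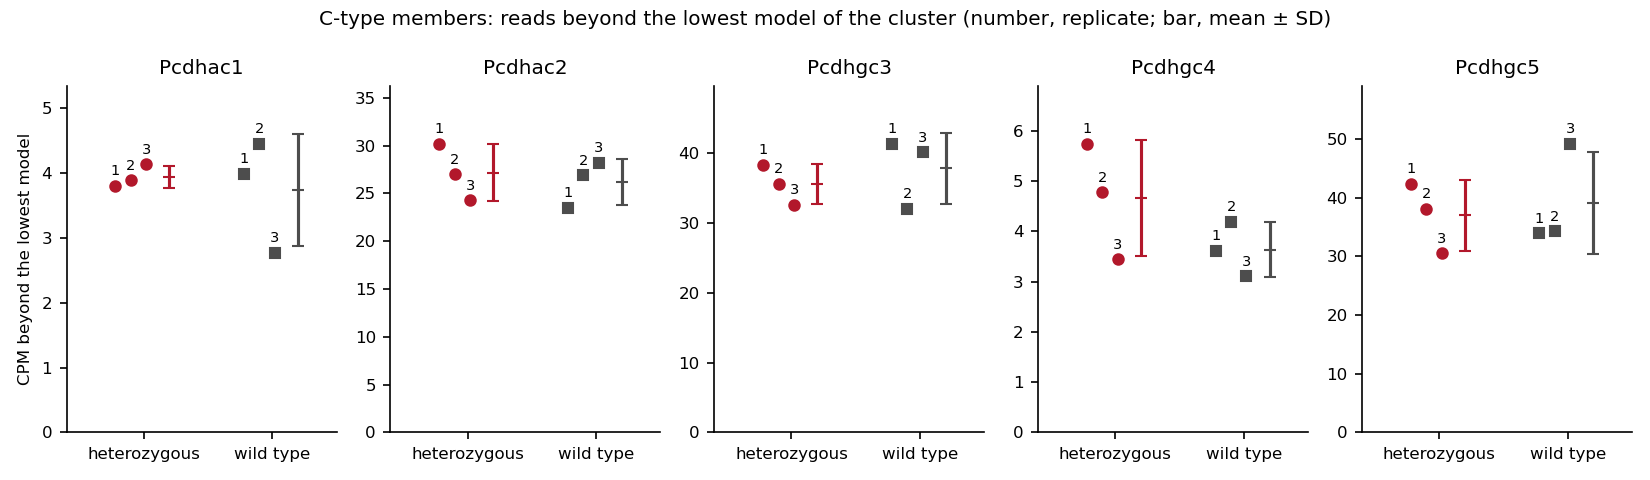
Reads beyond the lowest model of the cluster (CPM, own axis for each gene) for the 5 C-type members; points are libraries numbered by replicate, heterozygous left and wild type right, with mean ± SD beside them (n = 3 per genotype). The genotypes overlap in each panel, and Pcdhac2, Pcdhgc3 and Pcdhgc5 lie between 23.5 and 49.2 CPM against 2.77 to 5.74 CPM for Pcdhac1 and Pcdhgc4.

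Per length, levels within the alpha and gamma clusters were highest at the C-type end. On the scale of CPM beyond the lowest model per kilobase of own exon, averaged over the 6 libraries, Pcdhgc3 stood at 10.8, Pcdhac2 at 8.81 and Pcdhgc5 at 6.91. The next gamma members were Pcdhga11 at 2.93 and Pcdhga3 at 2.17. The next alpha members were Pcdha5 at 1.87 and Pcdha12 at 1.77. Other models overlap part of the own exons of some of these members. The bases free of other models were 1821 of 3383 for Pcdhgc3, 4606 of 5511 for Pcdhgc5, 1256 of 2640 for Pcdhga11 and 1944 of 2475 for Pcdha12. Reads in the overlapped bases were counted for the member too, and without strand they cannot be told apart. Pcdhgc4 at 1.19 and Pcdhac1 at 1.5 were within the range of the members that are not C-type. At the low end stood Pcdhgb5 with 0.15, and Pcdha8 is at 0 by construction.

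Spearman's correlation of this level with position in the cluster was 0.26 over the 14 alpha members and -0.06 over the 12 that are not C-type. For gamma it was 0.42 over 21 members and 0.16 over the 18 that are not C-type. These describe members measured in the same libraries.

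**Figure D4:**
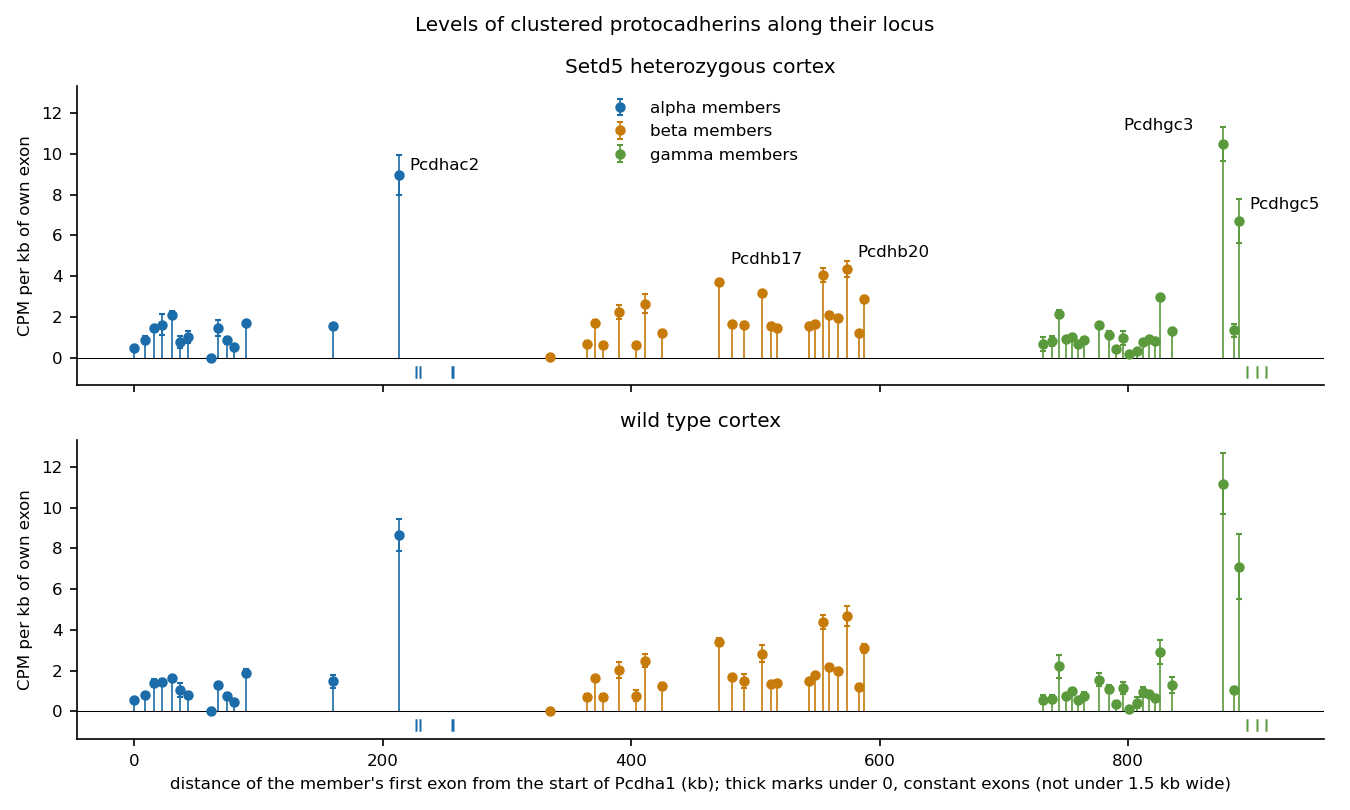
Mean level ± SD (n = 3 per genotype) of every member along the locus, heterozygous above and wild type below, as CPM per kilobase of own exon (beyond the lowest model for alpha and gamma, all counts for beta) against distance from the start of Pcdha1 in kilobases; thick marks under 0 are constant exons, drawn wider than scale. Pcdhgc3, Pcdhac2 and Pcdhgc5 stand above all other members in both genotypes, and the beta levels are highest at Pcdhb20 and Pcdhb17.

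Among members that are not C-type, Pcdha5 had the smallest p for reads beyond the lowest model. It had 4.93, 4.54 and 5.34 CPM in heterozygous libraries, against 3.74, 3.72 and 4.12 CPM in wild type libraries. Every heterozygous library lay above every wild type library. Means of these Pcdha5 reads were 4.93 ± 0.402 CPM for heterozygous and 3.86 ± 0.225 CPM for wild type cortex (SD, n = 3 per genotype). The log2 difference was 0.35 (SE 0.12), and the adjusted p by edgeR was 0.829. It was the 1 member of 34 with an unadjusted p under 0.05 in that fit, where 5.83% of all 27939 rows had one, and it did not have one with heterozygous replicate 3 left out.

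Pcdhgb1 was the other member whose groups did not overlap on this measure. It had 3.70, 3.35 and 3.14 CPM in heterozygous libraries and 2.69, 2.99 and 2.74 CPM in wild type libraries, a log2 difference of 0.28 (SE 0.13) with an adjusted p by edgeR of 0.864. On deposited counts 5.88% of all genes tested had groups that did not overlap with heterozygous higher, and 5.85% with heterozygous lower. No alpha or gamma member had reads beyond the lowest model whose 3 heterozygous values all lay below the wild type values.

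The remaining alpha members overlapped between genotypes on this measure. Fitted differences of the 13 alpha members with a value ran from -0.45 for Pcdha6 to 0.36 for Pcdha7, with 10 above and 3 below 0 and a median of 0.11. On deposited counts 49.9% of all genes tested were above 0. The same lowest count was taken from every alpha member of a library, so these 13 differences are not independent. Pcdha7 had 2.45, 3.32 and 1.87 CPM in heterozygous libraries and 1.82, 1.95 and 2.18 CPM in wild type libraries. Pcdha4 had 5.85, 5.22 and 3.01 CPM in heterozygous and 4.68, 3.83 and 4.01 CPM in wild type libraries, and Pcdha9 had 4.12, 4.23 and 2.43 CPM in heterozygous and 3.50, 3.21 and 3.05 CPM in wild type libraries. In these 3 genes heterozygous replicate 3 lay within or below the wild type range, while heterozygous replicates 1 and 2 lay above it. Pcdha1, the first member, had 1.00, 1.49 and 1.13 CPM in heterozygous libraries against 1.24, 1.42 and 1.34 CPM in wild type libraries.

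The 21 gamma members ranged from -0.42 for Pcdhga9 to 0.58 for Pcdhgb5 on this measure, with 15 above and 6 below 0 and a median of 0.06. On deposited counts 49.9% of all genes tested were above 0. The same lowest count was taken from every gamma member of a library, so these 21 differences are not independent. The median of the deposited gamma rows was -0.06. Pcdhgb5 had the fewest such reads, with 1.1, 1.12 and 0.275 CPM in heterozygous and 0.390, 0.607 and 0.658 CPM in wild type libraries, and its 95% interval ran from -0.47 to 1.64. Pcdhgb6 had 1.97, 2.15 and 1.76 CPM in heterozygous libraries and 1.73, 2.90 and 2.72 CPM in wild type libraries. Pcdhga8 had 3.54, 2.27 and 1.69 CPM in heterozygous and 2.07, 3.43 and 3.33 CPM in wild type libraries.

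Pcdhga3 had 5.09, 6.10 and 5.49 CPM in heterozygous libraries, between the wild type values of 4.78, 7.48 and 4.92 CPM. Pcdhga1, first in the cluster, had 2.78, 2.92 and 0.956 CPM in heterozygous and 1.29, 2.61 and 1.52 CPM in wild type libraries. The 95% interval of the Pcdhga1 difference ran from -0.61 to 1.2 on the log2 scale. The adjusted p over all alpha and gamma members on this measure was at least 0.829 in edgeR's quasi-likelihood test.

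Mean levels of the beta members tested ran from 1.92 CPM for Pcdhb2 to 19.6 CPM for Pcdhb17 and Pcdhb22. The fitted log2 differences of the 21 tested ran from -0.26 for Pcdhb6 to 0.20 for Pcdhb13, with 10 above and 11 below 0 and a median of -0.02. The 95% intervals all held 0, and 16 of the 21 lay within 0.5 of 0 on the log2 scale. Median coefficients of variation of the members were 8.85% among heterozygous and 9.96% among wild type libraries.

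Pcdhb13 had the smallest p. It had 6.29, 5.66 and 5.15 CPM in heterozygous libraries, against 4.45, 5.22 and 5.22 CPM in wild type libraries. Heterozygous replicate 3 lay just below wild type replicates 2 and 3. The log2 difference was 0.20 (SE 0.12), with an adjusted p by edgeR of 0.873, with 0.12 when heterozygous replicate 1 was left out and 0.13 when wild type replicate 1 was.

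Pcdhb9 was the only beta member whose groups did not overlap, 1 of 21 tested, where 5.88% of all genes were higher and 5.85% lower in this way. It had 11.06, 11.74 and 11.02 CPM in heterozygous libraries and 10.3, 10.9 and 9.72 CPM in wild type libraries. The lowest heterozygous value, 11.02 CPM, lay close above the highest wild type value, 10.95 CPM. The log2 difference was 0.13 (SE 0.09), with an adjusted p by edgeR of 0.878.

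Pcdhb12 had 9.64, 9.35 and 9.89 CPM in heterozygous libraries against 8.42, 9.96 and 7.38 CPM in wild type libraries, where replicate 2 exceeded all heterozygous values. The model Gm37446 overlaps part of Pcdhb12, and without strand their reads cannot be told apart there. Its log2 difference was 0.16 (SE 0.12), with 0.28 when wild type replicate 2 was left out and 0.07 without wild type replicate 3.

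The 3 beta members with the highest counts lie toward the gamma side of the cluster. Pcdhb22, last in position, had 19.9, 17.7 and 19.0 CPM in heterozygous libraries and 20.6, 21.8 and 18.7 CPM in wild type libraries. Pcdhb17 had 18.5, 17.5 and 20.7 CPM in heterozygous and 22.2, 19.5 and 19.4 CPM in wild type libraries. Pcdhb20 had 17.1, 14.9 and 14.4 CPM in heterozygous libraries and 17.2, 14.7 and 18.2 CPM in wild type libraries. The 3 genes overlapped between genotypes, with log2 differences of -0.11 each. With single libraries left out these ran from -0.18 to -0.04 for Pcdhb17, from -0.20 to -0.04 for Pcdhb20 and from -0.17 to -0.06 for Pcdhb22. Together they held 29.2 ± 1.05% of all beta counts in heterozygous and 31.4 ± 1.03% in wild type cortex (SD, n = 3 per genotype). By library the share was 30%, 28% and 29.7% in heterozygous and 32.2%, 31.9% and 30.3% in wild type cortex. The groups did not overlap on this share, narrowly, and the difference in share was not tested.

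Per kilobase of exon Pcdhb20 led the beta cluster at 4.52 CPM, followed by Pcdhb17 at 4.21 and Pcdhb9 at 3.54. The median of the members tested was 1.67 CPM per kilobase. Pcdhb4 was the lowest tested member at 0.664. It had 2.47, 2.57 and 2.08 CPM in heterozygous libraries against 2.14, 2.40 and 3.14 CPM in wild type libraries, a log2 difference of -0.11 (SE 0.18).

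Pcdhb1 had 2, 4 and 12 counts in heterozygous libraries and 2, 4 and 2 counts in wild type libraries, against the limit of 3 counts that a count of 0 allows. Heterozygous replicates 2 and 3 and wild type replicate 2 stood above that limit, and no fold is given.

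Beta level per length was higher toward the gamma side of the cluster, with a Spearman correlation with position of 0.50 over 22 members. The median level was 0.955 CPM per kilobase over positions 1 to 8, 1.55 over positions 9 to 15 and 2.15 over positions 16 to 22. The fitted differences between genotypes also varied along the cluster. At positions 9 to 15 the log2 difference was above 0 in 6 of 7 members, with a median of 0.13, and at positions 16 to 22 it was below 0 in 6 of 7, with a median of -0.11. The 7 tested members before them had a median of -0.07, with 3 above and 4 below 0. None of these members passed the test, the bins were chosen with the data known, and the rank correlation of the difference with position was -0.10 over 21 members. For the alpha and gamma members, on reads beyond the lowest model, this correlation was -0.10 over 13 and -0.32 over 21 members.

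**Figure D5:**
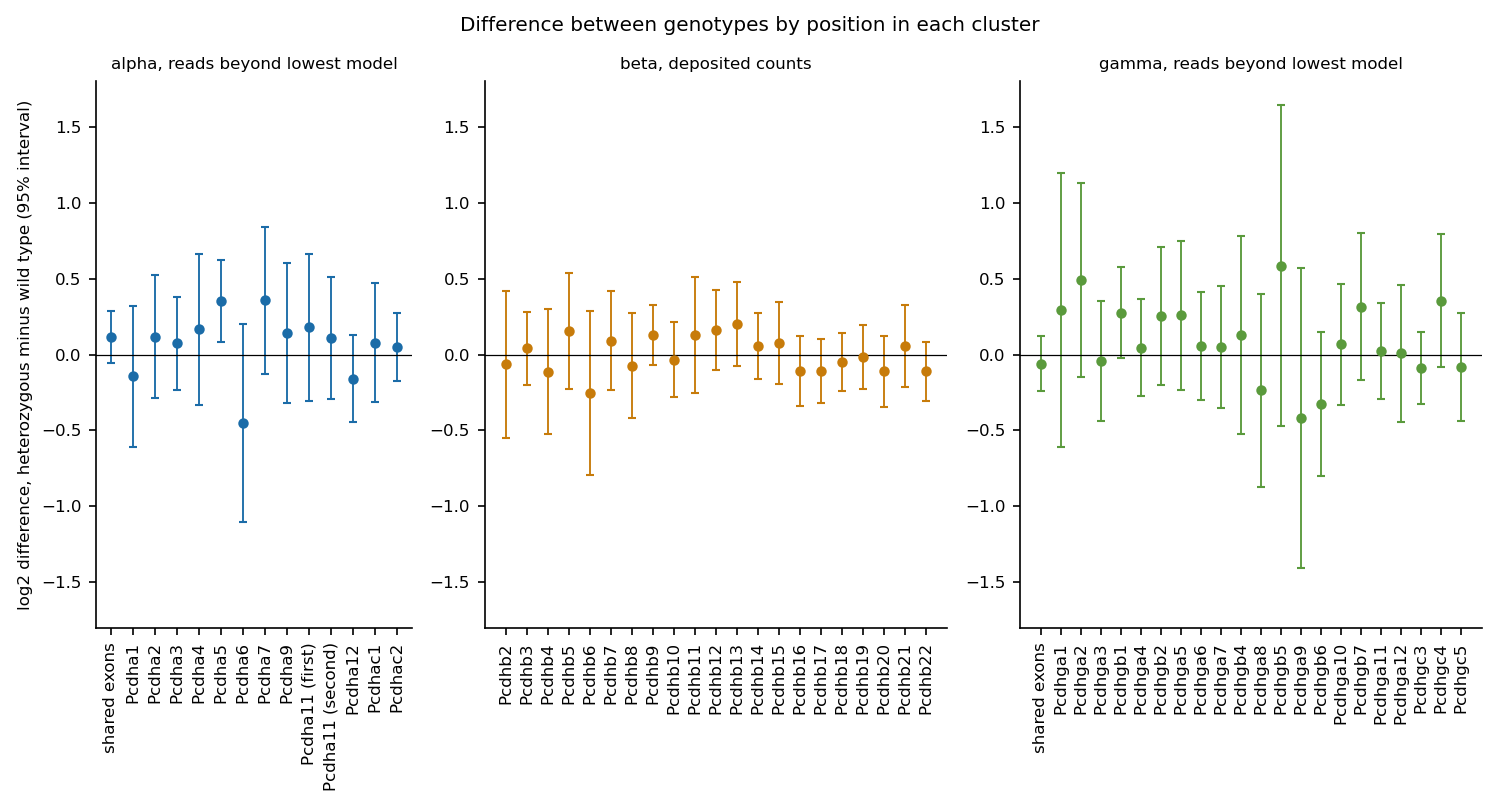
Log2 difference, heterozygous minus wild type, with its 95% interval for members in order of position (3 libraries in each genotype), on reads beyond the lowest model for alpha and gamma, preceded by the lowest model as shared exons, and on deposited counts for beta. Intervals are narrow for the shared exons and most beta members and wide for several gamma members; of the intervals shown, that of Pcdha5 does not hold 0 before adjustment over all genes.

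Genes that act on the clusters were compared from a list of 27 regulators. In edgeR's quasi-likelihood test none was called and 1 had an unadjusted p under 0.05, where 5.83% of all genes had one. Of the 27, 18 log2 differences were above and 8 below 0 (Trim28 rounded to 0.00), with a median of 0.05, and over all genes 49.9% were above 0. Ctcf, whose protein binds the promoters and enhancers, had 75.4 ± 3.22 CPM for heterozygous and 72.7 ± 0.325 CPM for wild type cortex (SD, n = 3 per genotype). Smchd1, a chromatin protein that represses the clusters, had 48.2 ± 2.66 CPM for heterozygous and 47.4 ± 1.93 CPM for wild type cortex (SD, n = 3 per genotype). Their log2 differences were 0.05 (SE 0.06) and 0.02 (SE 0.07). Tet3, which oxidizes methylated cytosine, had 81.5, 76.6 and 67.7 CPM in heterozygous libraries against 70.4, 57.2 and 53.2 CPM in wild type libraries. Heterozygous replicate 3 lay below wild type replicate 1. The Tet3 log2 difference was 0.32 (SE 0.11), with an adjusted p by edgeR of 0.828. Tet2, of the same family, had a log2 difference of 0.14 (SE 0.08). Dnmt3b, which methylates the promoters of clustered protocadherins in mouse embryos, had one of -0.64 (SE 0.34) at 0.383 ± 0.0967 CPM for heterozygous and 0.597 ± 0.187 CPM for wild type cortex (SD, n = 3 per genotype).

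Of 23 partners and effectors of the cytoplasmic domains none was called in edgeR's quasi-likelihood test, where 0 of 27939 genes were. None had an unadjusted p under 0.05, against 5.83% of all genes. The log2 differences were above 0 in 8 and below 0 in 15, with a median of -0.03, and over all genes 49.9% were above 0. Ptk2, the focal adhesion kinase that alpha and gamma constant domains bind and inhibit, had 154, 154 and 149 CPM in heterozygous libraries, against 132, 149 and 131 CPM in wild type libraries. Its log2 difference was 0.15 (SE 0.07). Wasf2, of the WAVE family of actin regulators, had a difference of -0.23 (SE 0.10). Prkca, a protein kinase C, had one of -0.19 (SE 0.09).

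The 31 protein-coding neighbours compared within 500 kb leave out Gm42416, Gm37013 and Gm37388, which share exons with members. None of the 31 was called in edgeR's quasi-likelihood test, where 0 of 27939 genes were. An unadjusted p under 0.05 was found for 1 of them, against 5.83% of all genes. Of their log2 differences 17 were above and 13 below 0 (Apbb3 rounded to 0.00), and over all genes 49.9% were above 0. Hdac3, which encodes a histone deacetylase and lies beyond the gamma end, had 58.4 ± 2.7 CPM for heterozygous and 58.0 ± 4.12 CPM for wild type cortex (SD, n = 3 per genotype). Pcdh12, a protocadherin of endothelial cells outside the clusters, had 0.239, 0.194 and 0.198 CPM in heterozygous libraries against 0.615, 0.528 and 0.386 CPM in wild type libraries. Its log2 difference was -1.27 (SE 0.34), with an adjusted p by edgeR of 0.775. The summed level of 4 endothelial markers was 49.6, 49.4 and 50 CPM in heterozygous and 59.1, 60.7 and 61.8 CPM in wild type libraries. Every heterozygous endothelial sum lay below every wild type sum. All 4 markers had fitted differences below 0, and none was at 0 CPM. In edgeR's quasi-likelihood test 3 of the 4 had an unadjusted p under 0.05, against 5.83% of all genes. The part of these markers in the Pcdh12 difference was not tested. Dnd1, an RNA-binding protein of germ cells, had a log2 difference of 0.42 (SE 0.20). Eif4ebp3, a repressor of translation initiation, had one of 0.28 (SE 0.14).

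Markers of the cells that could carry these transcripts were set beside them. The summed level of 8 excitatory neuron markers was 1449, 1345 and 1312 CPM in heterozygous libraries and 1365, 1393 and 1311 CPM in wild type libraries. The 5 interneuron markers came to 687, 689 and 670 CPM in heterozygous and 624, 651 and 696 CPM in wild type libraries. Both groups of markers overlapped between genotypes. The 5 oligodendrocyte markers summed to 8444, 10110 and 12250 CPM in heterozygous and 7001, 9026 and 7695 CPM in wild type libraries. The 5 astrocyte markers summed to 1054, 1105 and 1202 CPM in heterozygous and 1233, 1239 and 1245 CPM in wild type libraries. Every heterozygous astrocyte sum lay below every wild type sum. The 4 microglial markers summed to 192, 186 and 208 CPM in heterozygous and 239, 210 and 201 CPM in wild type libraries. The 5 markers of meningeal fibroblasts summed to 39.3, 34.8 and 36 CPM in heterozygous and 64.5, 80.7 and 37.3 CPM in wild type libraries. For the 4 choroid plexus markers the sums were 1.78, 3.70 and 6.74 CPM in heterozygous and 3.68, 3.83 and 11.7 CPM in wild type libraries. None of these marker genes stood at 0 in every library, and edgeR's quasi-likelihood test called none, where it called 0 of 27939 genes. Its unadjusted p was under 0.05 for 2 of 8 excitatory neuron, 0 of 5 interneuron, 2 of 5 oligodendrocyte and 2 of 5 astrocyte markers. It was so for 1 of 4 microglial, 3 of 4 endothelial and 4 of 5 meningeal markers. For choroid plexus markers it was 1 of 4 and for the striatal genes 0 of 4, against 5.83% of all genes. DESeq2 called 1 of the marker genes, the meningeal collagen gene Col1a1 (adjusted p 0.0364). Col1a1 stood at 5.12 ± 1.13 CPM for heterozygous and 9.38 ± 3.33 CPM for wild type cortex (SD, n = 3 per genotype). The markers were set beside the values only, and their part in the protocadherin values was not tested.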

How the data were processed

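The authors deposited raw read counts per gene model, 1 table per library. Per the submitters' processing notes Bowtie2 2.3.4.3, featureCounts, DESeq2 and FastQC were used, on builds mm10 and GRCm38.p6; the sources used here give neither settings, nor the order of steps, nor the handling of reads that match several places. Variable exons of neighbouring members are similar in sequence, so reads may be lost or exchanged between members. The near-equal counts of models with common constant exons show that reads were counted in every overlapping model. The summed counts of alpha members, gamma members and Pcdhgb8, less each cluster's lowest count, were 0.672% to 0.76% of library totals. That share also holds own-exon reads, so it is an upper limit on the repetition among these models. Bowtie2 does not align reads across introns by itself, so reads over exon junctions may be missing.

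All 55450 identifiers matched GENCODE M21. All pairs of libraries differed beyond sampling noise (chi-square per gene 10.9 to 85.2). edgeR 4.0.16 in R 4.3.3 (filterByExpr with a minimum count of 10, TMM, glmQLFit, glmQLFTest, Benjamini-Hochberg) tested 27939 genes; the biological coefficient of variation was 16.1%. The fit was tested on simulated data. For alpha and gamma the lowest model's count was subtracted in each library, with that count kept as 1 row, and the fit was repeated over all genes; this was chosen after seeing the data. Levels used exon length outside the constant exons, since overlapped exons were counted too, in place of the planned exon length free of other models.

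Members and lists were chosen with earlier results of these data known. Named were Setd5, the C-type members and, in each cluster, the 4 members of smallest p on deposited counts, the 2 of highest and 1 of lowest level per length, and the first and last by position; of the other lists, Ctcf, Smchd1, Hdac3 and up to 3 each by smallest p. Pcdha6, Pcdha12, Pcdhb2, Pcdhb6, Pcdhga9, Pcdhga11 and Pcdhgb1 were named after their values were seen. Alternatives were other scalings, filters, DESeq2 1.42.0, limma-voom (limma 3.58.1) and left-out libraries. One item of the marker lists is not reported here.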

Additional observations from a re-analysis of the deposited data

How the results depend on the processing

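Under the scalings, filters, tests and left-out libraries run, no clustered protocadherin was called. Counts of all genes called higher and lower were 0 and 0 in the fit reported, 1 and 5 with every gene of at least 1 count, 16 and 47 in DESeq2, and 1 and 1 in limma-voom with quality weights; with single libraries left out 0 were called higher and 0 to 2 lower. Setd5 passed the threshold with every gene of at least 1 count (log2 difference -0.57, adjusted p by edgeR 0.0119), in DESeq2 (-0.56, adjusted p 2.81e-07) and in limma-voom (-0.59, adjusted p 0.0444). The cause was not tested. Members with an unadjusted p under 0.05 numbered 0 to 1 with single libraries left out (Pcdhb12 without wild type replicate 2). That was 1 of 56 members (1.79%), against 8.89% of all genes in that fit. Without the 2 libraries of high Xist there was 1 of 56 (Pcdhb17, 1.79%), against 7.89% of all genes. There was 1 of 34 on reads beyond the lowest model (Pcdha5, 2.94%), against 5.83% of all rows. On those reads the count of 1 of 34 became 1 to 5 with single libraries left out. The 5 (14.7%, against 5.51% of all genes in that fit) came without heterozygous replicate 3. Without the libraries of high Xist there were 6 (17.6%, against 7.9% of all genes). Pcdha4, Pcdha7, Pcdhgb5 and Pcdhgc4 were among both the 5 and the 6. Both fits leave out heterozygous replicate 3, so they are not separate evidence.

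The beta median of -0.02 ran from -0.042 to 0.046 with libraries left out and was 0.046 without the libraries of high Xist; the gamma median was 0.056 on reads beyond the lowest model. For deposited rows that changed sign, the range with libraries left out, whose upper end came without wild type replicate 3, was -0.135 to 0.016 for Pcdhgc3, -0.114 to 0.03 for Pcdhgc4, -0.131 to 0.039 for Pcdhgc5, -0.224 to 0.062 for Pcdhb4, -0.125 to 0.024 for Pcdhgb6, -0.124 to 0.024 for Pcdhga8, -0.117 to 0.022 for Pcdhga3, -0.122 to 0.028 for Pcdhgb5 and -0.118 to 0.028 for Pcdhga1. Without the libraries of high Xist the values were 0.041 for Pcdhgc3, 0.054 for Pcdhgc4, 0.074 for Pcdhgc5, 0.004 for Pcdhb20, 0.149 for Pcdhb4, 0.044 for Pcdhgb6, 0.047 for Pcdhga8, 0.042 for Pcdhga3, 0.05 for Pcdhgb5 and 0.052 for Pcdhga1. Pcdhb4 was 0.027 in limma-voom.

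No paired analysis was possible because the labels give the genotypes no common replicate numbers, and the numbers used here only name libraries in listing order. The own-exon reads of the alpha and gamma members are lower limits, since the lowest model absorbs an unknown number of them.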
